A study of Mus musculus with 2 samples.

Results

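The Rab GTPases are the largest branch of the Ras superfamily and mark the membranes of a cell by compartment. An exchange factor loads a Rab with GTP on its membrane, the active form recruits effectors that tether, move or fuse vesicles, and an activating protein returns it to the GDP form that a dissociation inhibitor carries through the cytosol. In neutrophils, members of the family are known for granule release, for the uptake and maturation of phagosomes and for the recycling of surface receptors.

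The family was taken as all genes with a protein-coding transcript whose symbol is Rab followed by a number and at most a letter and a digit. The symbol matched 59 genes, of which 1 was left out by the rule, so 58 of the 22028 protein-coding genes and of the 55536 Ensembl genes in the tables were described. The RNA came from neutrophils, isolated as primary cells from the spleen of virgin male B6CASTF1/J mice aged 65 days, F1 hybrids with a mother of strain C57BL/6 and a father of strain CAST/EiJ. There was 1 group of 2 total RNA libraries, named biological replicates 1 and 2. The input was 300 ng of RNA per library, to which ERCC spike-in transcripts were added. As the donor identifier of both is the same, separate animals are not shown by the labels, and their differences may be technical. With no second condition, levels are described and no condition is tested.

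Replicate 1 held 18387963 expected counts and replicate 2 held 18090108. Levels are TPM, a transcript abundance per effective length with a fixed total per library, as the authors deposited them in the RSEM layout, and errors are SDs of n = 2. The RNA of the signal recognition particle (Rn7s1 and Rn7s2) took 43.8% of TPM in replicate 1 and 31.6% in replicate 2, and protein-coding genes took 32.8% and 45.4%. All 12 neutrophil markers stood at 10 TPM or more in both libraries, with summed levels of 35590 and 71040 TPM. Of 51 markers of other cells, 7 stood at that level in both libraries, namely Csf1r and Cd68 of monocytes, Mcpt8 and Prss34 of basophils, Hba-a1 and Hbb-bs of erythroid cells, and Col1a1 of stroma. Of the NK cell genes, Ncr1, Gzma and Eomes had 0 counts in both libraries, and Klrb1c had 3 and 0 counts. Of the dendritic cell genes, Xcr1 had 0 counts in both, and Zbtb46 and Siglech had at most 0.21 TPM. H2-Ab1 of that list had 4.98 TPM in replicate 1 and 16.7 TPM in replicate 2, and Flt3 had 1.04 and 1.51 TPM. In such bulk RNA, fewer cells of a type and less RNA per cell cannot be told apart.

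A Rab is held on its membrane by lipid groups that an enzyme attaches to cysteines at its carboxyl end. The codons for these cysteines are the part of the coding sequence that members share by function and that varies in arrangement, so they are shown for the members with high levels and for 1 exception. Each sequence below gives the last 10 codons of the coding sequence, stop codon included, of the complete coding transcript named in parentheses, with cysteine codons among the 5 codons before the stop in capitals. They are reference sequence of the GENCODE M21 transcripts on GRCm38, on the coding strand, and not the sequence of the hybrid mice.
Rab7 (Rab7-205, chromosome 6): aaggcctccgcagaaagcTGCagtTGTtga
Rab14 (Rab14-201, chromosome 2): caaccccagagagaaggcTGTggcTGCtag
Rab3d (Rab3d-201, chromosome 9): cccccacagccgagcagcTGCagcTGTtag
Rab6a (Rab6a-201, chromosome 7): ccagtcaatgaaggcggcTGTtccTGCtaa
Rab1a (Rab1a-201, chromosome 11): gtcaagcagtcaggtggaggcTGCTGCtaa
Rab1b (Rab1b-201, chromosome 19): gtgaagcctgctagcggtggcTGCTGCtag
Rab32 (Rab32-201, chromosome 10): acaacaaagcccaggtcccagTGCTGCtga
Rab11a (Rab11a-208, chromosome 9): ccaaaggtgcagTGCTGTcagaacatctaa
Rab11b (Rab11b-203, chromosome 17): aacaagctgcagTGCTGCcagagcctgtga
Rab44 (Rab44-206, chromosome 17): tcaaccaagagagctggcTGCTGCcactga
Rab5a (Rab5a-201, chromosome 17): ccagccagaagccagTGTTGTagtaactga
Rab5b (Rab5b-201, chromosome 10): cagaacaagagccagTGTTGTagcaactga
Rab5c (Rab5c-202, chromosome 11): gccagccggagccagTGCTGCagcaactga
Rab24 (Rab24-201, chromosome 13): ccttacttctacagcTGTTGTcatcactga
Rab8a (Rab8a-201, chromosome 8): accagcttcttccggTGCagtctcctgtga
Rab8b (Rab8b-201, chromosome 9): accagtttcttccgcTGTtctctgctttga
Rab26 (Rab26-202, chromosome 17): cgagaggggcaagatgatgccggtgggtga

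Of the 58 members, 19 had cysteine codons in the last and the third position from the end, as in Rab7. A further 15 had a pair of them directly before the stop codon, as in Rab1a, and 14 had an adjacent pair followed by other codons, as in Rab11a and the Rab5 genes. A single cysteine codon stood in this stretch in 9 members, among them Rab8a and Rab8b. The transcript read for Rab26 had none, and no other transcript of that gene was read for this purpose. The coding sequences had a median of 214.5 codons. Rab44, an atypical large Rab described in immune cells, was far longer, with 973 codons in Rab44-206.

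The family was expressed broadly, with most of its RNA from a limited number of members. In both libraries, 36 of 58 members (62.1%) stood at 1 TPM or more, against 9528 of 22028 protein-coding genes (43.3%). At 10 TPM or more stood 26 members (44.8%), against 22.3% of protein-coding genes, and at 50 TPM or more 7 members (12.1%), against 5.58%. The median level of the members was 7.54 ± 1.88 TPM, and that of all protein-coding genes was 0.365 ± 0.0495 TPM. Rescaled over protein-coding genes alone, the medians were 19.2 ± 0.425 and 0.943 ± 0.0879. Of all protein-coding TPM, the members together took 0.378% in replicate 1 and 0.338% in replicate 2. The 5 highest members held 39.5% ± 2.82 of the family's TPM and the 20 highest held 87.0% ± 0.427.

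**Figure D1:**
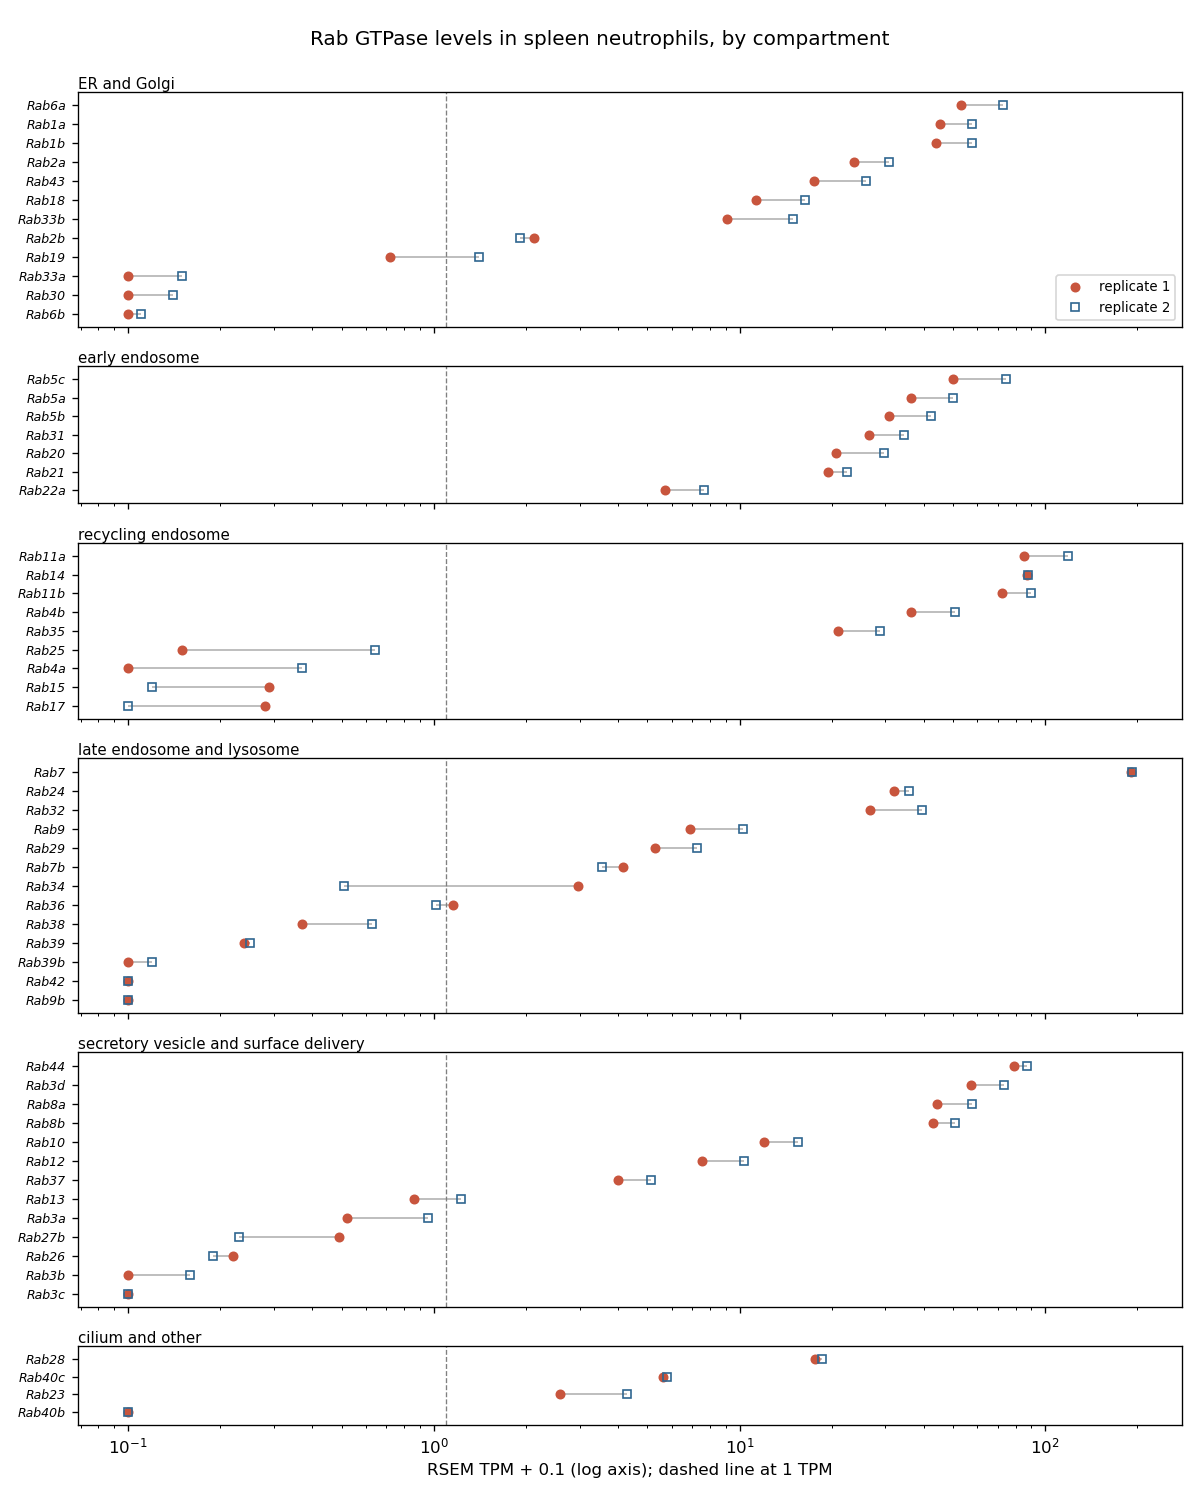
Level of each of the 58 Rab genes, as RSEM TPM + 0.1 on a log axis, in replicate 1 (filled circles) and replicate 2 (open squares), grouped by the compartment each is best known for; the dashed line marks 1 TPM. All 7 early endosome genes lie above the line, and Rab7 is highest at 191 TPM in replicate 1 and 192 TPM in replicate 2.

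Late endosome and lysosome genes held the single highest member and many silent ones. Rab7 (ENSMUSG00000079477.9, mm10 chromosome 6, 87999106 to 88045270), which drives late endosomes and phagosomes towards lysosomes, had 191 TPM in replicate 1 and 192 TPM in replicate 2. It ranked 299 among protein-coding genes and alone made up 13.9% ± 2.04 of the family's TPM. Its TMM-scaled counts were also near equal, at a ratio of 0.9994, while rescaled over protein-coding genes alone Rab7 had 581 and 422 TPM. Rab24, an atypical Rab linked to autophagy, had 32.0 and 35.8 TPM. Rab32, which with Rab38 serves lysosome-related organelles such as melanosomes, had 26.6 and 39.3 TPM. Rab9, of transport between late endosomes and the Golgi, had 6.81 and 10.2 TPM, and Rab29, a partner of the kinase Lrrk2, had 5.18 and 7.15 TPM. Of the 13 genes in this group, 6 stood at 1 TPM or more in both libraries, and the group median was 1.90 ± 1.38 TPM. Rab36 had 1.06 and 0.92 TPM, and Rab34 had 2.87 and 0.41 TPM. Rab38, Rab39 and Rab39b stayed below 1 TPM in both libraries.

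The early endosome group was the only one in which every member passed 1 TPM in both libraries. Its 7 genes had a median of 30.3 ± 5.60 TPM. The 3 Rab5 genes, which control fusion of early endosomes and of new phagosomes, were all well expressed. Rab5c had 49.96 TPM in replicate 1 and 74.1 TPM in replicate 2, Rab5a had 36.3 and 49.7 TPM, and Rab5b had 30.7 and 42.2 TPM. In each library Rab5c was the highest and Rab5b the lowest of the 3. Rab31, a Rab5 relative of endosome and Golgi traffic, had 26.4 and 34.3 TPM. Rab20, known from maturing macrophage phagosomes, had 20.5 and 29.7 TPM. Rab21, linked to integrin traffic, had 19.4 and 22.3 TPM, and Rab22a had 5.62 and 7.55 TPM, the lowest of the group.

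Recycling endosome genes divided into 5 members with high levels and 4 with almost none. Rab11a, the best known regulator of the recycling endosome, had 85.3 TPM in replicate 1 and 119 TPM in replicate 2. Its paralog Rab11b had 72.0 and 89.9 TPM. Rab14, which acts between the Golgi and endosomes and on phagosomes, had 87.3 and 87.9 TPM. These 3 genes were among the 5 highest of the family. Rab4b, of fast recycling, had 36.2 and 50.4 TPM, and Rab35, of recycling and cytokinesis, had 20.9 and 28.8 TPM. Rab25 and Rab17, known from epithelia, and Rab15 and Rab4a lay between 0 and 0.54 TPM in both libraries. The group median was 24.8 ± 5.58 TPM, and the group held 24.4% of the family's TPM in replicate 1 and 24.5% in replicate 2, the largest share of the 6 groups.

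Among the secretory and surface delivery genes, Rab44 and Rab3d were highest. Rab44, known in the mouse as a modulator of mast cell degranulation, had 79.2 TPM in replicate 1 and 87.0 TPM in replicate 2. Rab3d, a Rab of secretory granules in exocrine and mast cells, had 57.3 and 73.3 TPM. Its relatives of neuronal and endocrine vesicles were low, with 0.42 and 0.86 TPM for Rab3a, 0 and 0.06 TPM for Rab3b, and 0 counts for Rab3c. Rab8a and Rab8b, which carry vesicles to the surface, had 44.2 and 57.6 TPM and 42.8 and 50.7 TPM. Rab10, of related traffic, had 11.9 and 15.5 TPM, Rab12 had 7.46 and 10.2 TPM, and Rab37, found on mast cell granules, had 3.89 and 5.04 TPM. Rab27b, which docks secretory granules in platelets and other cells, had 0.39 and 0.13 TPM. The 13 genes had a median of 4.46 ± 0.813 TPM, with 7 at 1 TPM or more in both libraries.

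The ER and Golgi group had a median of 12.8 ± 3.89 TPM, with 8 of its 12 genes at 1 TPM or more in both libraries. Rab6a, of traffic within and from the Golgi, had 53.0 TPM in replicate 1 and 72.6 TPM in replicate 2. Rab1a and Rab1b, which act from the ER to the Golgi, had 45.2 and 57.3 TPM and 43.9 and 57.3 TPM. Rab2a, of the same early route, had 23.65 and 30.7 TPM. Rab43 had 17.4 and 25.8 TPM, Rab18, known from lipid droplets, had 11.2 and 16.3 TPM, and Rab33b, an autophagy partner, had 8.97 and 14.9 TPM. Rab30, Rab33a and Rab6b were listed at 0 TPM in replicate 1 and at most 0.05 TPM in replicate 2. Of the last 4 genes, Rab28, described in cilia, had 17.6 and 18.5 TPM, Rab40c, a subunit of a ubiquitin ligase, had 5.50 and 5.71 TPM, and Rab23, a regulator of Hedgehog signalling, had 2.49 and 4.19 TPM.

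In all, 18 members lay below 1 TPM in both libraries, and Rab13, Rab19, Rab34 and Rab36 passed it in 1 library. The 4 members with 0 expected counts in both libraries were Rab42, Rab3c, Rab40b and Rab9b. A count of 0 allows up to 3 counts, which for Rab42 corresponds to 0.208 TPM in replicate 1 and 0.244 TPM in replicate 2, and for Rab9b to 0.0354 and 0.0416 TPM. The limits were 0.0456 and 0.0536 TPM for Rab3c and 0.210 and 0.247 TPM for Rab40b. These limits cover counting error only. By the second quantification, in the kallisto layout, Rab42 was also at 0 in both libraries, while Rab3c had 0.158 and 0.101 TPM, Rab40b had 0 and 0.166 TPM, and Rab9b had 0.048 and 0 TPM. The values of Rab3c in both libraries and of Rab9b in replicate 1 lie above the limits given for RSEM.

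Many Rabs exist as close copies, and the neutrophil RNA held both copies at near equal level in some pairs and almost only 1 in others. Of 19 pairs, 13 were 2-fold or more apart in both libraries on the scale of log2(TPM + 0.1). The 13 include Rab39 over Rab39b, at 0.14 and 0.15 TPM against 0 and 0.02 TPM, which fell within 2-fold when 1 TPM was added instead, leaving 12. Rab6a exceeded Rab6b by 9.21 ± 0.224, with 0 TPM of Rab6b in replicate 1 and 0.01 TPM in replicate 2. Rab4a lay below Rab4b by a log2 ratio of -7.80 ± 0.997, with 0 and 6 counts of Rab4a. Rab33a over Rab33b stood at -6.57 ± 0.099, Rab3a over Rab3d at -6.52 ± 0.374 and Rab40b over Rab40c at -5.83 ± 0.038. Rab9 over Rab9b stood at 6.40 ± 0.406, Rab32 over Rab38 at 6.07 ± 0.144 and Rab7 over Rab7b at 5.64 ± 0.169. Rab26 over Rab37 stood at -4.47 ± 0.408 and Rab2a over Rab2b at 3.75 ± 0.377. Where the lower copy is at or near 0, the size of these ratios is set by the 0.1 TPM added, and only the direction can be read.

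The other 6 pairs lay within 2-fold and joined the Rab1, Rab5, Rab8 and Rab11 genes. Rab1a over Rab1b stood at 0.02 ± 0.03 by RSEM, a difference smaller than its SD. By kallisto it stood at 0.31 ± 0.145, larger than its SD. Rab8a over Rab8b stood at 0.12 ± 0.097 by RSEM and at -0.03 ± 0.046 by kallisto, so its direction depends on the quantifier. Rab11a over Rab11b stood at 0.32 ± 0.113 and Rab5a over Rab5b at 0.24 ± 0.007. Rab5a over Rab5c stood at -0.52 ± 0.083 and Rab5b over Rab5c at -0.76 ± 0.076. These last 4 differences were larger than their SD between the libraries, which with n = 2 is a weak measure.

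**Figure D2:**
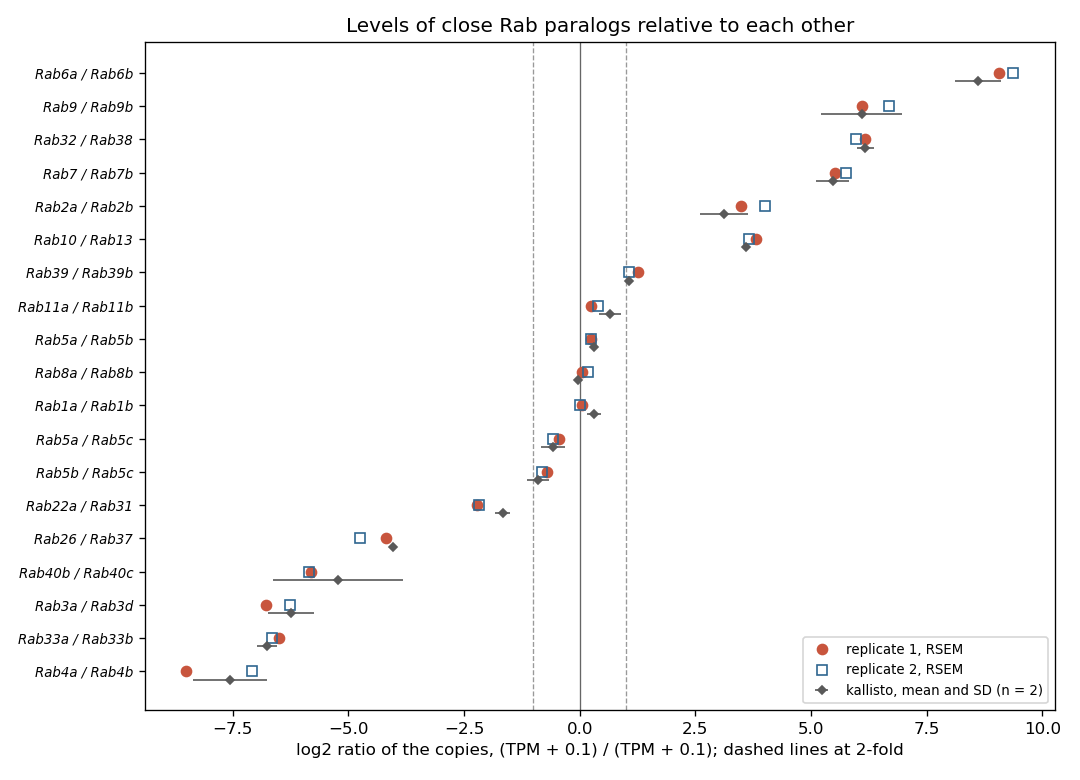
Log2 ratio of the levels in 19 pairs of close Rab genes, in replicate 1 (filled circles) and replicate 2 (open squares) by RSEM and as the kallisto mean with its SD (diamonds and bars, n = 2); dashed lines mark 2-fold. By RSEM, Rab1a / Rab1b and Rab8a / Rab8b lie next to 0, while Rab6a / Rab6b lies at 9.21 and Rab4a / Rab4b at -7.80.

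The copies can be told apart by reads, because their sequences differ often. The coding sequences of the pairs were between 65.4% identical (Rab7 and Rab7b) and 79.3% identical (Rab8a and Rab8b). The longest identical run in any of the 19 pairs was 38 bases, in Rab1a and Rab1b at bases 298 to 335 of the Rab1a coding sequence, shown here as the longest stretch in which these copies cannot be separated.
Rab1a and Rab1b shared run: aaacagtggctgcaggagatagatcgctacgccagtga
No pair shared a window of 101 bases, the fragment length that the effective lengths of the RSEM layout imply. Windows of that length were shared with genes outside the pairs in 12 members, and in 5 members they made up 5% or more of all windows. They were 73.8% for Rab43 with Gm45140, a protein-coding gene on the same strand (2.51 and 1.00 TPM), and 49.2% for Rab4b with Gm21983 (0 TPM in both libraries). They were 7.87% for Rab7 with the pseudogene Rab7-ps1 (1.01 and 0.80 TPM), 7.08% for Rab11b with Rab11b-ps2, and 6.07% for Rab5b with Gm13991. Expected counts were whole in 51 members and not whole in 7, namely Rab7, Rab11a, Rab11b, Rab8b, Rab5b, Rab43 and Rab26. The levels of these 7 are uncertain to that extent. Counts of Rab4b were whole despite its shared windows, so whole counts alone do not show that the assignment of reads was certain.

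Some members overlap other expressed genes. Rab10os, antisense to Rab10, had 22.1 TPM in replicate 1 and 27.55 TPM in replicate 2, above Rab10 itself. Rab24 overlaps Prelid1 (63.0 and 83.4 TPM), Rab37 overlaps Cd300lf (73.1 and 85.5 TPM) and Rab2b overlaps Tox4 (45.5 and 70.2 TPM), each on the other strand. The library kit was directional per the labels, but whether strand was used in counting is not given in the sources used here. On the same strand, Rab7 overlaps Gm44187, a transcript to be experimentally tested, at 36.7 and 34.1 TPM.

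The share of RNA on coding transcripts varied widely among Rab genes. For the 37 members with a mean of at least 1 TPM, the median share of a gene's TPM on protein-coding transcripts was 79.7% by kallisto, and it was 73.4% for 9834 protein-coding genes at that level. By RSEM the medians were 84.3% and 77.2%. Rab8b, Rab2a, Rab20 and Rab10 have a single annotated transcript, so their share is 100% by construction. The same holds for Rab7, Rab5c, Rab1b, Rab31, Rab21 and Rab9, whose annotated transcripts are all protein-coding. In 6 members (16.2%) the mean share lay under 50% by kallisto, against 23.6% of those protein-coding genes, and in 4 members (10.8%) by RSEM, against 20.1%. Rab14 stood out among the highly expressed members, with 25.6% in replicate 1 and 27.3% in replicate 2. Its leading transcript, the coding Rab14-201, held 19.6% ± 2.79 of the TPM, and the retained intron transcript Rab14-204, with 657 bases, held 19.6% ± 2.96. By RSEM the coding share of Rab14 was 31.45%.

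The other 5 under 50% by kallisto were Rab4b, Rab2b, Rab12, Rab34 and Rab23. Rab4b had 41.1% in replicate 1 and 50.2% in replicate 2, and Rab12 had 27.5% and 35.0%. Rab2b had 54.0% and 16.4%, Rab34 10.7% and 23.8%, and Rab23 13.1% and 2.23%, and these 3 genes had at most 121 counts per library. By RSEM the mean shares of Rab12 and Rab23 were also under 50%, at 42.4% and 11.4%, but those of Rab4b, Rab2b and Rab34 were 54.3%, 58.6% and 65.4%. Rab8a was under 50% by RSEM alone, at 39.0%, next to 50.9% by kallisto. Both quantifiers named the same leading transcript in 30 of the 37 members and different ones in 7, namely Rab11a, Rab8a, Rab18, Rab7b, Rab23, Rab2b and Rab34. For Rab8a the coding Rab8a-201 led by kallisto with 50.9% ± 6.45, and the retained intron transcript Rab8a-202, of 542 bases, led by RSEM with 61.0% ± 0.686. For Rab11a the coding fragment Rab11a-201, of 595 bases, led by kallisto with 35.3% ± 6.29, and the retained intron transcript Rab11a-209 led by RSEM with 27.8% ± 1.74. For Rab18, Rab18-203 led by kallisto with 39.8% ± 2.25 and Rab18-201 by RSEM with 47.4% ± 6.68, both coding. For Rab7b the coding Rab7b-201 held 27.7% by kallisto and Rab7b-202 held 28.7% by RSEM. Rab2b was led by Rab2b-201 with 35.2% by kallisto, and by the retained intron Rab2b-208 with 35.95% by RSEM. The leader of Rab23 was not coding by either quantifier, with Rab23-210 at 31.9% by kallisto and Rab23-208 at 34.05% by RSEM. Rab34 was led by the retained intron Rab34-207 with 68.0% by kallisto and by the coding Rab34-208 with 25.5% by RSEM.

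**Figure D3:**
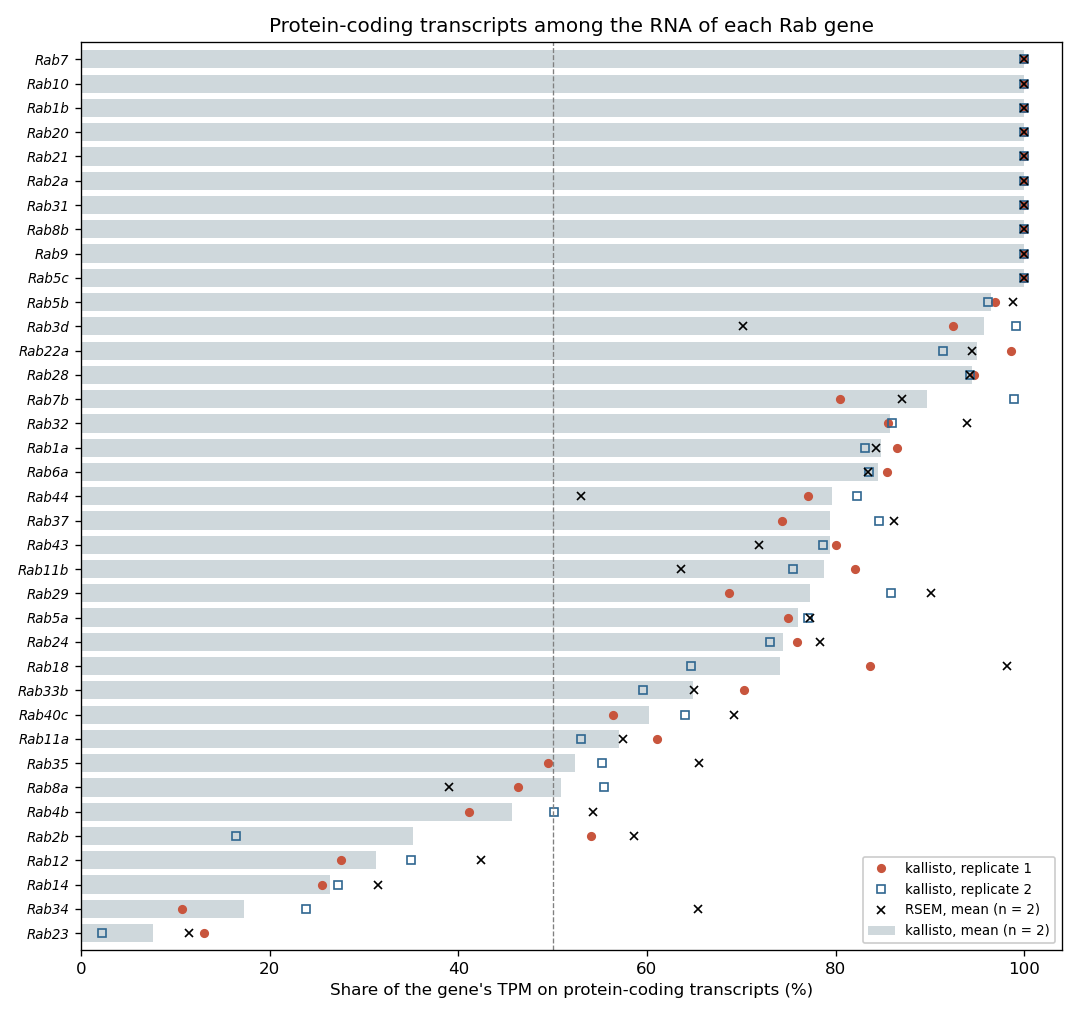
Percent of each gene's TPM on protein-coding transcripts for the 37 Rab genes with a mean of at least 1 TPM, with kallisto values of replicate 1 (filled circles) and replicate 2 (open squares), their mean (bars) and the RSEM mean (crosses). Rab14 lies at 25.6% and 27.3%, and the quantifiers lie far apart for Rab34. Rab7, Rab5c and Rab1b lie at 100% by construction, as all their annotated transcripts are protein-coding.

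Coding transcripts of a gene can also code for different proteins. Among the 37 members, 15 had 1 complete coding sequence and 22 had more than 1. The 5 annotated coding transcripts Rab7-201 to Rab7-205 share a single coding sequence of 624 bases, which held 86.0% ± 2.77 of the Rab7 TPM by kallisto. In Rab11b the coding sequence of 582 bases (Rab11b-203) held 59.8% ± 1.05 by kallisto and 41.6% ± 0.827 by RSEM, and the one of 657 bases (Rab11b-201) held 9.25% ± 0.552 and 4.41% ± 1.10. A second coding sequence with 10% or more by both quantifiers was found in 5 members, which were Rab18, Rab21, Rab22a, Rab28 and Rab7b. In Rab28 the sequence of 666 bases held 65.4% ± 1.83 and the one of 582 bases held 26.1% ± 2.77 by kallisto, with 65.0% and 28.3% by RSEM. In Rab22a the sequence of 564 bases held 68.7% ± 5.20 and the one of 585 bases held 26.4% ± 0.085 by kallisto, against 51.4% and 43.0% by RSEM.

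Rab6a has a pair of mutually exclusive coding blocks of 96 bases, which occupy bases 184 to 279 of its coding sequence of 627 bases and make the proteins known as Rab6A and Rab6A'. They are shown because reads over the 30 differing bases, in capitals, separate the forms. They are GENCODE M21 sequence on GRCm38, chromosome 7, plus strand.
Rab6a first block (Rab6a-201): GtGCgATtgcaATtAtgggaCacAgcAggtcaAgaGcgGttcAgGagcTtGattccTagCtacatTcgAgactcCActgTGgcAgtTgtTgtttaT
Rab6a second block (Rab6a-202): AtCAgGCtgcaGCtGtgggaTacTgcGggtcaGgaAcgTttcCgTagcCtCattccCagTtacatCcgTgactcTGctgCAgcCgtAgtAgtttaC
Of the TPM on transcripts with either block, the first took 77.9% in replicate 1 and 73.2% in replicate 2 by kallisto, a mean of 75.6% ± 3.30. The second took 22.1% and 26.8%, a mean of 24.4% ± 3.30. By RSEM the second block took 24.6% ± 4.88. The single transcripts with the second block were not settled between the libraries. By kallisto Rab6a-202 held 18.9% of all Rab6a TPM in replicate 1 and 4.59% in replicate 2, while Rab6a-203 held 0% and 17.8%, so the share of the block was steadier than that of either transcript.

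The libraries were set against each other to see how far single levels can be trusted. With expected counts rounded, TMM scaling, the exact binomial test (two-sided) and Benjamini-Hochberg adjustment, 18 of 44 tested members passed an adjusted p of 0.05, where 32.1% of all genes tested did. This compares 2 libraries and not conditions. The other 14 members had under 10 counts in both libraries together and were not tested. Of the 18, 14 were higher in replicate 2 and 4 in replicate 1. Of the 4850 genes called among all 15118 tested, 2577 were higher in replicate 2 and 2273 in replicate 1. These are 17% and 15% of all genes tested. All 12 neutrophil markers were called higher in replicate 2 as well, with a median log2 ratio of -0.40, as were 4 of 5 B cell markers (median -1.77) and 4 of 5 erythroid markers (median -1.28). Summed levels in replicates 1 and 2 were 35590 and 71040 TPM for the neutrophil list, 4.49 and 17.4 TPM for the B cell list and 45.3 and 114 TPM for the erythroid list, with no marker of the 3 lists at 0 in both. Their part in the Rab differences was not tested. The median log2 ratio of replicate 1 over replicate 2 was -0.13 in the members and -0.024 in protein-coding genes. In the 36 members with at least 200 counts together, ratios ran from -0.44 to 0.32, so no member of that depth was 2-fold apart.

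While 32.1% of all genes tested were called, and 17% called higher in replicate 2, the role groups varied. Of the 7 early endosome genes, 5 were called and all 5 were higher in replicate 2. Rab5c had 1950 counts in replicate 1 and 2501 in replicate 2, a ratio of 0.789 (adjusted p = 6.43e-14, exact binomial test). The others were Rab5a, Rab5b, Rab20 and Rab22a, with ratios of 0.877, 0.861, 0.823 and 0.840. Of the recycling genes, Rab11a (0.871) and Rab35 (0.852) were higher in replicate 2 and Rab14 (1.11) in replicate 1. Of the secretory genes, Rab3d, Rab8a and Rab12 were higher in replicate 2, with Rab12 the most apart of all 14 at 0.736. Of the late endosome genes, Rab32 (0.802) and Rab9 (0.759) were higher in replicate 2 and Rab24 (1.20) in replicate 1. Of the ER and Golgi genes, Rab6a (0.918) and Rab1b (0.905) were higher in replicate 2.

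The directions depend on the scaling. On TPM rescaled over protein-coding genes, Rab3d, Rab8a, Rab1b, Rab6a, Rab5a, Rab5b, Rab35, Rab12 and Rab22a instead were higher in replicate 1. The gaps were small, with Rab35 at 63.6 and 63.4 TPM and Rab3d at 174 and 161 TPM. Rab11a, Rab5c, Rab32, Rab20 and Rab9 stayed higher in replicate 2. The family's total on that scale was 3779 TPM in replicate 1 and 3379 TPM in replicate 2. With ERCC totals, which were 77771 counts in replicate 1 and 47031 in replicate 2, the median ratio of all genes moved to -0.74 on the log2 scale. Then 40 of 44 members were called, 38 of them higher in replicate 2, and Rab27b and Rab34 alone were higher in replicate 1. Of all 15118 genes tested, 11350 were called with this scaling, so the shift was not particular to the Rabs. With kallisto estimated counts 22 of 48 members were called, where 6003 of all 19305 genes tested were. Of the 22, 15 were shared with the 18 above, and Rab34 alone was called higher in replicate 1.

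**Figure D4:**
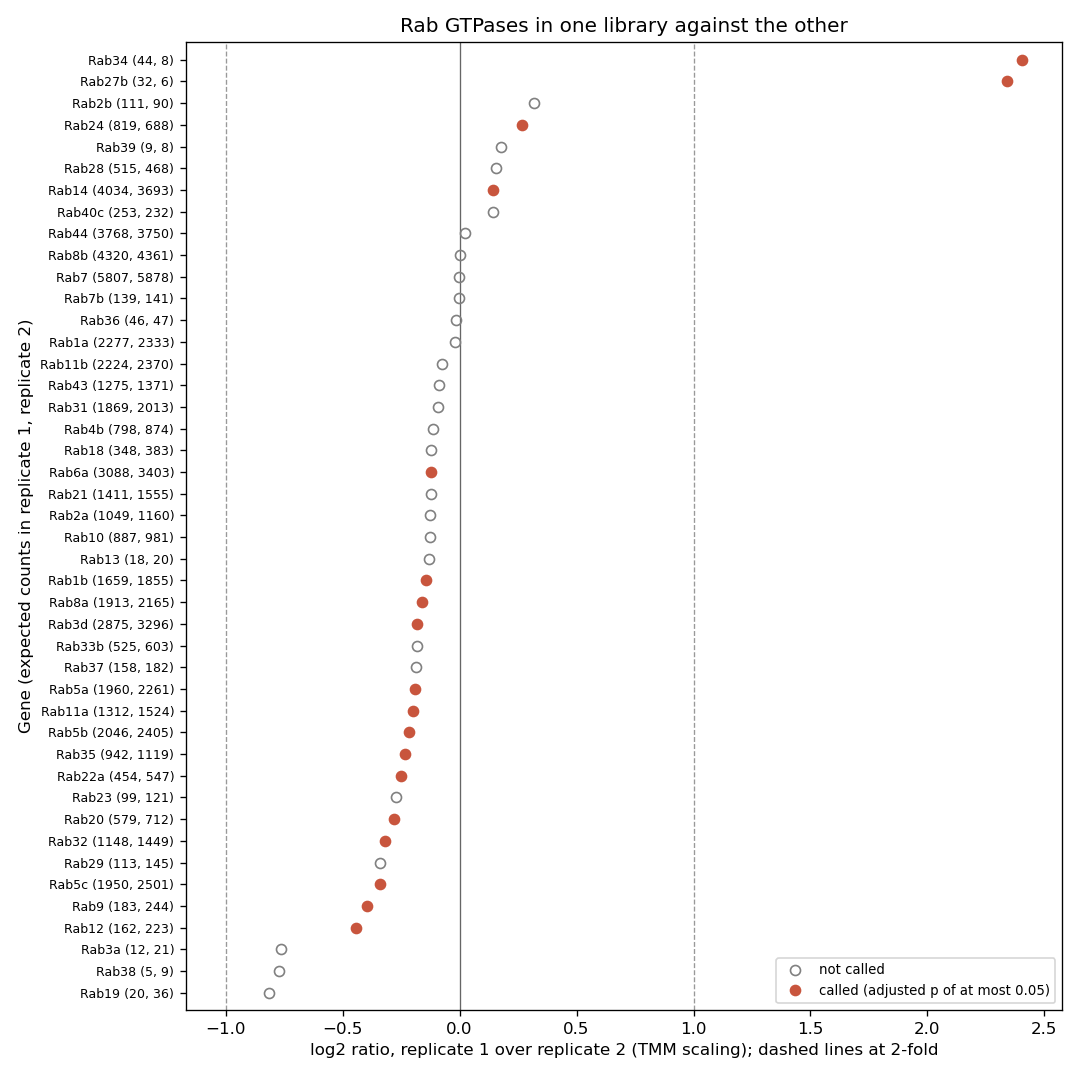
Log2 ratio of replicate 1 over replicate 2 for the 44 tested Rab genes, with expected counts of each library beside the name, after TMM scaling; filled points passed an adjusted p of 0.05 by the exact binomial test and dashed lines mark 2-fold. Rab34 and Rab27b lie at 2.41 and 2.34, and all other genes lie within the dashed lines.

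Rab34 and Rab27b were the 2 members at least 2-fold apart, a size reached by 10.1% of all genes tested and by 6.22% of protein-coding genes. With the adjusted p as well, 5.88% of all genes and 3.59% of protein-coding genes passed. Replicate 1 held 44 counts of Rab34 against 8 in replicate 2, a log2 ratio of 2.41 (adjusted p = 1.95e-06, exact binomial test). Rab27b had 32 and 6 counts, a log2 ratio of 2.34 (adjusted p = 9.25e-05, exact binomial test). By kallisto Rab27b had 0.566 TPM in replicate 1 and 0.523 TPM in replicate 2, so its difference was not seen by both quantifiers. Of the 5 platelet and megakaryocyte markers 4 were called, with Pf4, Ppbp and Itga2b higher in replicate 1 and Gp9 higher in replicate 2. Their median log2 ratio was 1.03, their summed levels were 17.7 and 14.0 TPM, and none of the 5 was at 0. The part of these cells in the Rab27b and Rab34 differences was not tested.

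Rab34 was also the only member apart between the quantifiers, being higher by kallisto by over 2-fold in each library. That was 1 of 37 members compared, against a background of 4.27% of protein-coding genes, or 3.86% higher by kallisto. RSEM gave Rab34 2.87 TPM in replicate 1 and 0.41 TPM in replicate 2, and kallisto gave 14.9 and 2.95 TPM, most of it on the retained intron transcript Rab34-207 of 352 bases. Rab2b was apart in replicate 2 alone, with 1.81 TPM by RSEM and 4.49 TPM by kallisto. For the other members compared, the choice of quantifier moved levels by less than 2-fold in both libraries.

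Most of the listed regulators and effectors of Rabs were present too. Of 121 genes in 5 lists, 93 stood at 1 TPM or more in both libraries, against 43.3% of protein-coding genes. All 7 genes of the list for escort, GDP dissociation inhibition and prenylation did so. The inhibitor Gdi2 led with 92.1 TPM in replicate 1 and 116 TPM in replicate 2, followed by Rabac1, which releases Rabs from the inhibitor, with 43.6 and 65.05 TPM. Rabggta and Rabggtb, the subunits of the enzyme that lipidates the cysteines shown above, had 12.2 and 10.4 TPM and 7.22 and 12.02 TPM, and Rabggtb is named outside the rule for these lists.

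Exchange factors were the list with the highest sum, 883 TPM in replicate 1 and 932 TPM in replicate 2, with 27 of 33 genes at 1 TPM or more. Rin3, an exchange factor of the Rab5 group, had 95.4 and 153 TPM, and Rabgef1, another for Rab5, had 102 and 96.9 TPM. Dennd5a, of the DENN domain family, had 109 and 115 TPM. Of the activating proteins, 28 of 34 stood at 1 TPM or more, led by Tbc1d15, known to act on Rab7, with 77.1 and 76.2 TPM, Tbc1d10c with 47.9 and 69.3 TPM, and Tbc1d8 with 51.6 and 57.2 TPM. Of the effectors, 29 of 45 did. They were led by Mical1, an actin-oxidising enzyme, with 187 and 207 TPM. Rab11fip1, which binds Rab11, had 90.0 and 106 TPM, and Ehbp1l1, which binds Rab8, had 53.8 and 57.7 TPM. The kinase Lrrk2, which phosphorylates Rab8, Rab10 and other Rabs, had 65.9 and 60.8 TPM, and its relative Lrrk1 had 7.57 and 6.87 TPM.

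**Figure D5:**
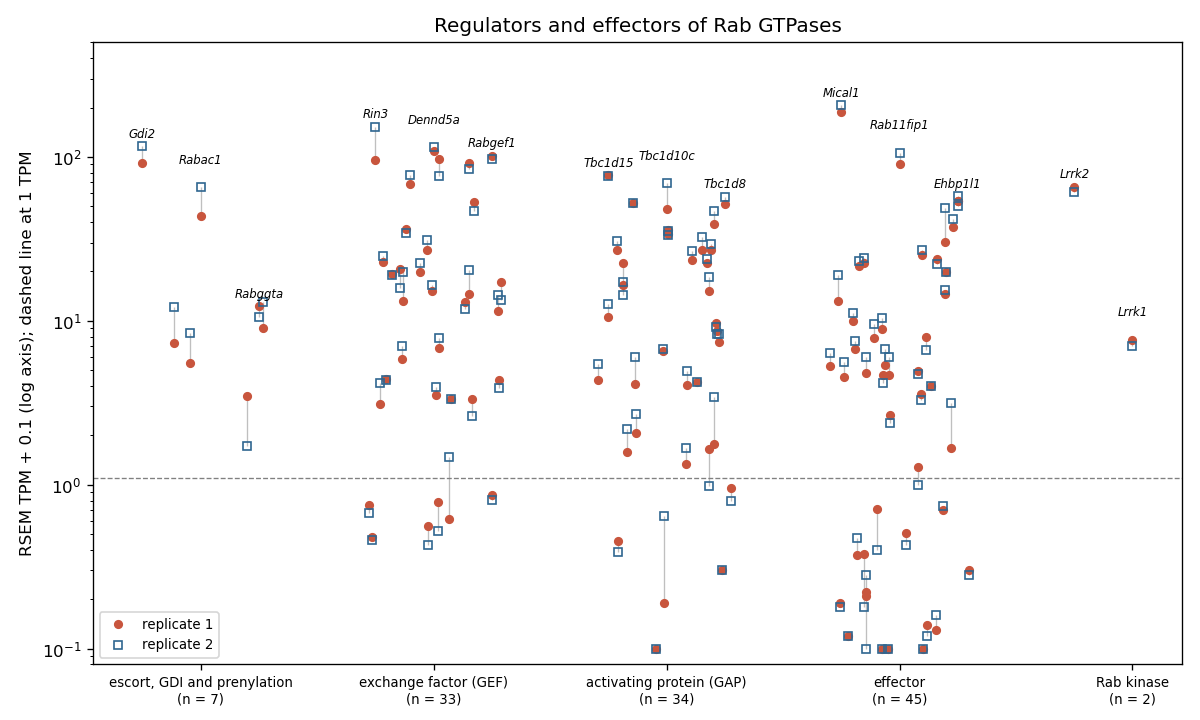
Levels of 121 regulators and effectors of Rabs in 5 lists, as RSEM TPM + 0.1 on a log axis, in replicate 1 (filled circles) and replicate 2 (open squares), with the 3 highest genes of each list named; the place along the horizontal axis within a list has no meaning. The dashed line marks 1 TPM, and Mical1 is highest at 187 TPM in replicate 1 and 207 TPM in replicate 2.

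Between the libraries, 38 of 113 tested regulators and effectors passed an adjusted p of 0.05 by the exact binomial test, next to the background of 32.1%. Replicate 1 had the higher value for 28 of these 38 and replicate 2 for 10, and none of the 38 was 2-fold apart. Among all genes tested, 15% were called higher in replicate 1 and 17% in replicate 2. The median log2 ratio of the 113 was 0.07, where that of the Rabs was -0.13, and the difference between these medians was not tested. With ERCC scaling 97 of the 113 were called, all higher in replicate 2, where 11350 of all 15118 genes tested were called.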

How the data were processed

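Total RNA of spleen neutrophils was sequenced as 1 group of 2 libraries. Per the file headers, the authors deposited expected counts, TPM, FPKM and the percent of a gene's TPM on each transcript in the layout of RSEM, and estimated counts and TPM per transcript in the layout of kallisto. Per the notes deposited with the files, the first came from transcriptome alignments and the second directly from reads, with mm10 and GENCODE M21. The programs, aligner and versions behind them are not stated, and both are named for their layouts. The deposited score columns (posterior SD of the count, bounds of the TPM interval) support no result.

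The members and all gene lists were chosen with earlier results of these data known. Expected counts were rounded and the libraries compared by an exact two-sided binomial test given TMM effective sizes (edgeR 4.0.16), in the 15118 genes with 10 or more counts in total, with Benjamini-Hochberg adjustment. This covers counting error only, because each side of the comparison is a single library. Reads were not counted as molecules. The comparison was tested on simulated counts that held counting error only, so that check says nothing about other differences between libraries. DESeq2 1.42.0 gave an alternative scaling. Ratios add 0.5 to counts and 0.1 to TPM. Counts within 0.005 of a whole number are called whole. The kallisto TPM was summed per gene. Full values go to the 20 highest members, to those apart between libraries, quantifiers or paralogs, to unsettled leading transcripts, to members at 0 and to the 3 highest genes of each regulator list. A regulator gene of those lists is not reported here. Coding sequences are from GENCODE M21 transcripts and start regions from RefSeq (GRCm38.p6).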

Additional observations from a re-analysis of the deposited data

How the results depend on the processing

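No paired analysis was possible because the series has 1 group. The median level of the members was 7.54 TPM, 19.2 over protein-coding genes and 10.4 over members above 0, and 6.21 and 8.87 in single libraries. The count of members at 1 TPM or more was 36 and reached 38 in a single library. Members called between the libraries numbered 18, and 40 with ERCC scaling, which called 11350 of all 15118 genes tested. Members 2-fold apart numbered 2, against 12 with ERCC scaling, 9 with no filter on counts, 1 with at least 50 counts (Rab34) and 4 from kallisto TPM. Members apart between quantifiers numbered 1, and 2 with no filter on low values, with 1 to 2 when a replicate was left out. The median coding share was 79.7%, 84.3% by RSEM and 82.0% to 83.5% in single libraries. Regulators and effectors called numbered 38, and 97 with ERCC scaling. Rab8a over Rab8b was 0.12 and turned to -0.03 with kallisto TPM. The cause of these moves was not tested. Of the settings tried on the main counts and medians, 29 left the value within the limit set for it and 13 moved it, and for single ratios 51 left it there, 24 moved it and 1 turned its direction. Depth limits the low members, since 14 of 58 had under 10 counts in both libraries together.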

Other observations

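The start regions of the members differed in CpG content by level. In windows of 300 bases around the start of each gene (RefSeq, GRCm38.p6), 47 of 58 members matched by symbol. Where a gene had several windows the highest count was taken, which can favour genes with more windows. The dinucleotide CG, which reads the same on both strands, occurred a median of 26 times in the 32 members with a mean of at least 1 TPM, with a range of 9 to 45. It occurred a median of 11 times in the 15 matched members below 1 TPM, with a range of 5 to 42, and 8 times over the 27025 genes of the table. The ranges overlap, no test was made, and base composition of the windows was not compared.

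Other entries of the tables that carry a Rab name were mostly low. The antisense RNA Rab10os had 941 counts in replicate 1 and 1082 in replicate 2, and Rab26os had 13 counts in each. The pseudogene Rab11b-ps2 had 0 and 0.81 TPM by RSEM but 0 and 15.8 TPM by kallisto, and Rab5a-ps and Rab9b-ps1 had 0 counts in both libraries.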
